A study of Mus musculus with 16 samples.

Results

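The comparison described here is the ectoderm of the distal mouse forelimb bud at E12.5 against the same tissue at E10.5, where E counts days of embryonic development. It uses 4 of the 16 RNA-seq libraries of the study, 2 at E12.5 and 2 at E10.5, chosen by their labels. The other libraries are ectoderm at E11.5, given here as the midpoint, ectoderm at E9.5, and mesoderm at the 4 stages. All came from untreated embryos of the strain B6. The outermost 150 microns of the limb were cut off at every stage and kept on ice in 0.25% trypsin for 20 min before forceps were used to lift off the ectoderm. Each group has 2 biological replicates, the first purified with the RNeasy Plus Mini Kit and the second with the RNeasy Mini Kit. Ectoderm and mesoderm of a stage and replicate number were taken from 1 batch of embryos. The replicate number therefore marks the RNA kit, and it was kept as a block in the test.

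The apical ectodermal ridge is a thickened strip of epithelium along the rim of the limb bud. It secretes fibroblast growth factors (FGFs) that keep the underlying mesenchyme growing and patterning, it is itself maintained by WNT signalling, and it regresses once the digits are laid out. The rest of the limb ectoderm is the precursor of the skin. It starts as a simple epithelium with keratins 8 and 18, turns on keratins 5 and 14 under the transcription factor p63, is covered for a time by a protective layer called periderm, and later builds suprabasal and cornified layers.

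Total gene counts were 22979717 and 14623396 in the E12.5 libraries (replicate 1 and replicate 2, as in all lists of values below), against 12035006 and 14398307 at E10.5. Levels are given as CPM, counts per 1000000 counts after scaling between libraries, and fold changes as log2 of E12.5 over E10.5. The surface epithelium label held: Epcam, an adhesion protein of epithelia, had 335 and 349 CPM at E12.5, against 483 and 458 CPM at E10.5, and averaged 2.85 CPM at E12.5 and 5.46 CPM at E10.5 in mesoderm. Limb mesenchyme markers were detected in ectoderm, at lower levels at E12.5. Over the 18 limb mesenchyme markers, with all 16 libraries scaled together, summed levels in ectoderm were 793.7 and 852.6 CPM at E12.5, against 1795 and 1418 CPM at E10.5, and the median marker stood at 3.71 and 5.10 percent of its level in the mesoderm of the same embryos at E12.5, against 12.8 and 11.2 percent at E10.5. In mesoderm the same markers summed to 8652 and 5701 CPM at E12.5, against 4120 and 3702 CPM at E10.5, so that the percentage also moves with the mesoderm level. The sum in ectoderm includes Pdgfra, a growth factor receptor with a higher level in ectoderm than in mesoderm at E10.5 (values given with the mesenchyme markers). The E11.5 replicate 1 library stood apart, with 37.5 percent by this measure and 8.63 percent in E11.5 replicate 2. Spearman's correlation across genes between the replicates of a stage ran from 0.969 to 0.984.

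Of 14476 genes tested, 2146 (14.8 percent) differed between E12.5 and E10.5 at an adjusted p under 0.05 (edgeR's quasi-likelihood test with Benjamini-Hochberg adjustment over all tested genes, used throughout). Of these, 1123 rose (7.76 percent of tested genes) and 1023 fell (7.07 percent). At least a 2-fold change was seen in 522 of the genes that rose and 582 that fell, and at least a 10-fold change in 79 and 119. The median log2 fold change of all tested genes was -0.00215. Groups that did not overlap, in either direction, were found in 39.9 percent of tested genes, with E12.5 above E10.5 in 20.5 percent and below it in 19.3 percent. At E11.5 the mean lay between those of the other stages in 1029 of the genes that rose and 919 of those that fell. The median share of the change reached at E11.5 was 48.4 percent for genes that rose and 50.4 percent for genes that fell. With E11.5 replicate 2 alone these shares were 41.3 and 42.4 percent, and with E11.5 replicate 1 alone 52.5 and 64.2 percent. Without the replicate block 569 genes were called, 3.93 percent of those tested (1.89 percent higher and 2.04 percent lower), all among the 2146. With a library left out the count was 697 without E12.5 replicate 1, 1172 without E12.5 replicate 2, 783 without E10.5 replicate 1 and 1343 without E10.5 replicate 2.

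**Figure D1:**
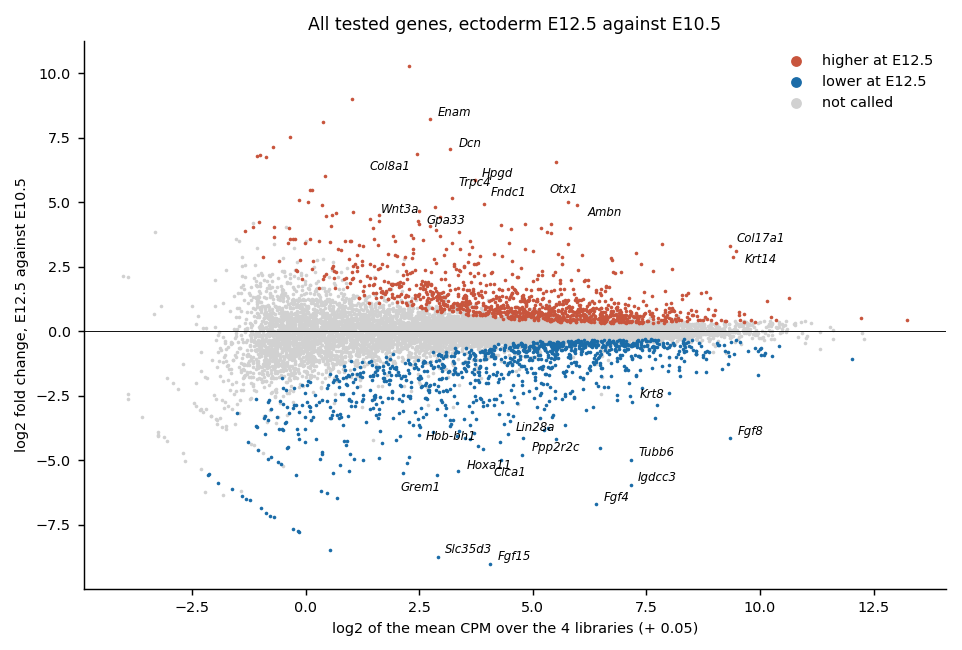
Each point is a tested gene, with the log2 of its mean CPM over the 4 libraries on the horizontal axis and its log2 fold change, E12.5 against E10.5, on the vertical axis. Red points are the 1123 genes higher at E12.5, blue points the 1023 genes lower, and grey points were not called; genes with the largest changes by the naming rule and several others are labelled, from Enam at 8.22 to Fgf15 at -9.01.

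The ridge growth factors fell most among the ridge genes. Fgf8, the main FGF of the ridge and present along its whole length, had 63.5 and 73.1 CPM at E12.5, against 1572 and 889 CPM at E10.5 (log2 fold change -4.15, SE 0.46, adjusted p = 0.00117). Both E12.5 libraries lay far below both E10.5 libraries, with 199 and 411 CPM at E11.5. Fgf4, the FGF of the posterior ridge, had 2.06 and 0.98 CPM at E12.5, against 239 and 94.6 CPM at E10.5 (log2 fold change -6.71, SE 1.21, adjusted p = 0.00825). The E10.5 libraries differed by more than a factor of 2 from each other, yet the lower of them was still far above E12.5. Fgf17, another posterior ridge FGF, had 4.75 and 2.74 CPM at E12.5, against 31.4 and 24.1 CPM at E10.5 (log2 fold change -2.87, SE 0.46, adjusted p = 0.00478). The groups did not overlap for any of these FGF genes. In contrast, Fgf9, expressed over the whole ridge, had 29.3 and 39 CPM at E12.5, against 38.4 and 57.9 CPM at E10.5, groups that overlapped, and was not called (log2 fold change -0.49, SE 0.19, adjusted p = 0.133). In bulk RNA, fewer ridge cells and less of a transcript per ridge cell cannot be told apart, and the dissected strip was 150 microns deep at every stage, whatever the size of the limb.

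The list of ridge signals and factors holds 22 genes, all of which were tested. Of these, 12 fell (54.5 percent, against 7.07 percent of all tested genes) and 3 rose (13.6 percent, against 7.76 percent), with a median log2 fold change of -0.81. Summed over the list, levels were 3800 and 3652 CPM at E12.5, against 6703 and 5711 CPM at E10.5. Besides the FGFs, the genes that fell were Cd44, a hyaluronan receptor enriched in the ridge (32.3 and 41.9 CPM at E12.5, against 154 and 173 CPM at E10.5), the bone morphogenetic protein (BMP) ligands Bmp2 (-1.89, SE 0.24), Bmp4 (-1.56, SE 0.19) and Bmp7 (-0.87, SE 0.14), Rspo2, a secreted WNT amplifier (-1.71, SE 0.33), the homeobox gene Dlx6 (-1.34, SE 0.15), Wnt5a, Sp6 and Sp8. Sp6 and Sp8 encode zinc finger factors needed to form the ridge, and they fell modestly. Sp8 had 128 and 158 CPM at E12.5, against 236 and 236 CPM at E10.5 (-0.74, SE 0.19), and Sp6 had 301 and 240.2 CPM at E12.5, against 546 and 458 CPM at E10.5 (-0.89, SE 0.21).

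Not all ridge factors declined. Sp9, the third zinc finger gene of the group, rose, with 60.4 and 41.5 CPM at E12.5, against 14.6 and 11.8 CPM at E10.5 (log2 fold change 1.95, SE 0.20, adjusted p = 0.000916). Msx2, a homeobox target of BMP signalling, rose modestly (388 and 279.8 CPM at E12.5, against 197 and 163 CPM at E10.5; 0.89, SE 0.14), as did Trp63, which encodes p63 (656 and 737 CPM at E12.5, against 523 and 522 CPM at E10.5; 0.41, SE 0.10). Dlx5 (-0.27), Dlx1 (-0.32), Dlx2 (0.17), Msx1 (0.43), Jag2 (-0.06) and En1 (-0.01) were not called. En1 marks the ventral limb ectoderm and Wnt7a its dorsal counterpart, and neither was called. Wnt7a had 188 and 96.9 CPM at E12.5, against 154 and 106 CPM at E10.5, with the replicates on opposite sides of no change. Sp6, Sp8 and Fgf4 were not called without E12.5 replicate 1, E12.5 replicate 2 or E10.5 replicate 1 (adjusted p between 0.0569 and 0.283), and Msx2 lost its call without E12.5 replicate 1 (adjusted p = 0.058). Trp63 was not called when any 1 of the 4 libraries was left out (adjusted p between 0.107 and 0.25). The number of list members that fell was 7 without E12.5 replicate 1, 7 without E10.5 replicate 1 and 8 without the replicate block.

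**Figure D2:**
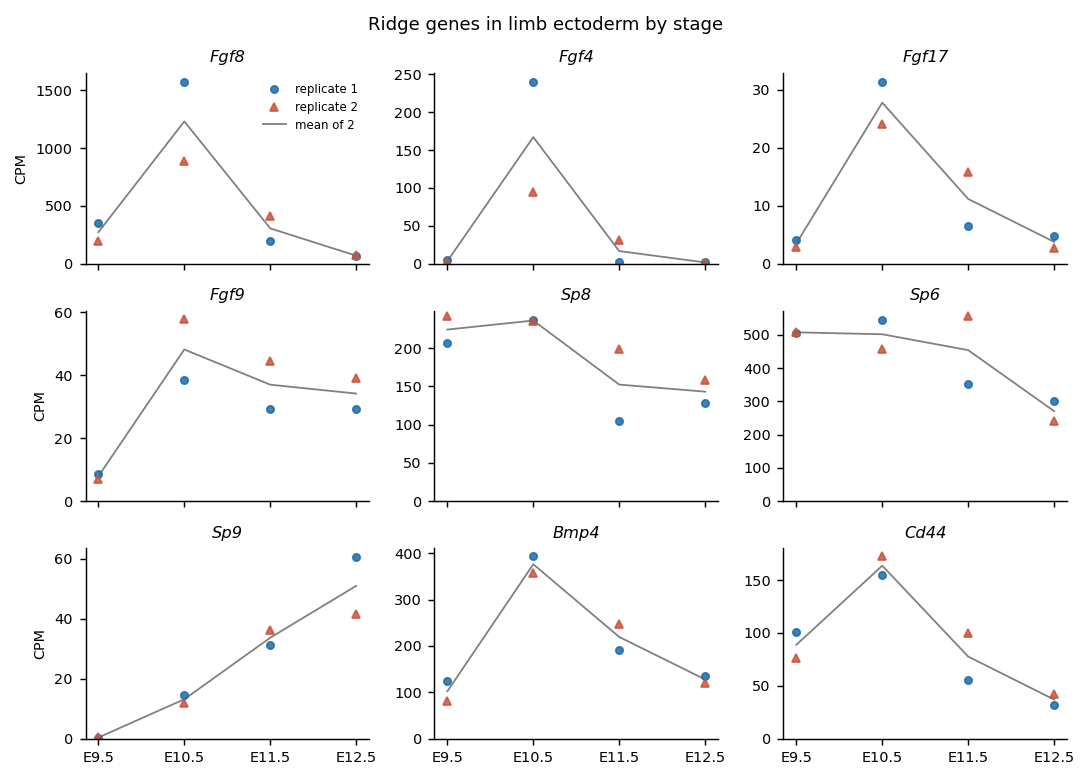
CPM of 9 ridge genes in ectoderm (vertical axes, each from 0) at the 4 stages (horizontal axes), with circles for replicate 1, triangles for replicate 2 and a line through the mean of 2. Fgf8, Fgf4, Fgf17, Bmp4 and Cd44 peak at E10.5 and are lowest or nearly so at E12.5, Fgf9 declines little, and Sp9 climbs to 60.4 and 41.5 CPM at E12.5.

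Genes next to each other in the FGF cluster on chromosome 7 fell together. Fgf3, Fgf4 and Fgf15 lie in this order on the plus strand, 2.9 kb and 31.3 kb apart (mm10), at chr7:144838083-144844436, chr7:144847367-144865243 and chr7:144896531-144900953. Fgf15 had the largest fall of the genes named by rule, with 0.0914 and 0 CPM at E12.5, against 58.6 and 7.82 CPM at E10.5. Pooled over libraries this was 2 counts at E12.5 and 790 at E10.5, a ratio of 551 in favour of E10.5 with a counting interval from 152 to 4560 (95 percent). The E10.5 libraries differed from each other by more than a factor of 7 in this gene. Fgf3, added here after its values were seen, had 0.959 and 0.718 CPM at E12.5, against 18.2 and 7.76 CPM at E10.5 (log2 fold change -3.91, SE 0.67, adjusted p = 0.00665). A gene on the opposite strand overlaps Fgf15, and the sources do not state whether reads were counted by strand.

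Most feedback genes of FGF signalling were not called in ectoderm. Of 11 tested genes of the FGF feedback list, 2 fell (18.2 percent, against 7.07 percent of all tested genes) and 0 rose, with a median log2 fold change of 0.01. Etv1, an ETS transcription factor, had 19.9 and 32 CPM at E12.5, against 38.2 and 45.2 CPM at E10.5 (-0.72, SE 0.17). Il17rd (Sef), a membrane inhibitor of FGF signalling, had 51.2 and 56.6 CPM at E12.5, against 96.5 and 122 CPM at E10.5 (-1.02, SE 0.17). Spry4, Dusp6, Etv4 and Etv5, the usual readouts, were not called, at -0.06 (SE 0.22), 0.05 (SE 0.15), 0.01 (SE 0.13) and -0.02 (SE 0.11). In mesoderm of the same embryos, Dusp6 changed by -1.71 and Etv4 by -1.07 on the log2 scale over the same stages, and the difference between the layers was called for both (1.73, adjusted p = 0.00118, and 1.08, adjusted p = 0.00368; edgeR, 16 libraries with embryo batch as a block). Il17rd was not called without E12.5 replicate 1 (adjusted p = 0.0649), and Etv1 lost its call without E12.5 replicate 1 or E10.5 replicate 1 (adjusted p between 0.193 and 0.232).

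Among 12 tested WNT ligands 2 rose (16.7 percent, against 7.76 percent of all tested genes), 3 fell (25 percent, against 7.07 percent) and 7 were not called. Wnt7b, an epidermal ligand, had 638 and 369 CPM at E12.5, against 209.8 and 145 CPM at E10.5 (log2 fold change 1.48, SE 0.15, adjusted p = 0.000824), and Wnt4 had 200.3 and 152 CPM at E12.5, against 115 and 102 CPM at E10.5 (0.69, SE 0.10). Both stood higher in every E12.5 library. Wnt5a, a ligand of the non-canonical branch in ridge and mesenchyme, had 413 and 460 CPM at E12.5, against 838 and 853 CPM at E10.5 (-0.95, SE 0.14), and Wnt11 (-0.88, SE 0.22) and Wnt5b (-0.68, SE 0.17) also fell. The number of ligands that fell was 1 without E10.5 replicate 1, without E12.5 replicate 2 or without the replicate block, and Wnt4 was not called without the replicate block (adjusted p = 0.0896).

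More feedback genes and antagonists of WNT signalling fell than rose. Of 20 tested, 8 fell (40.0 percent, against 7.07 percent of all tested genes) and 1 rose (5 percent, against 7.76 percent), with a median of -0.71. Tcf7, a nuclear partner of beta-catenin and itself a WNT target, had 72.7 and 92.2 CPM at E12.5, against 474 and 386 CPM at E10.5 (log2 fold change -2.40, SE 0.20, adjusted p = 0.000452). Notum, an enzyme that inactivates WNT ligands, had 40.4 and 28.5 CPM at E12.5, against 169 and 142 CPM at E10.5 (-2.16, SE 0.27). Dkk4 and Sp5, both WNT targets, were low at both stages and lower at E12.5. Dkk4 had 0.274 and 0 CPM at E12.5, against 4.45 and 2.43 CPM at E10.5 (-4.42, SE 0.88). Sp5 had 0.228 and 0.0653 CPM at E12.5, against 2.79 and 0.657 CPM at E10.5 (-3.34, SE 0.76). Axin2, the most used readout of the pathway, fell by 0.96 (SE 0.18), and Dkk1, Apcdd1 and Kremen1 fell by 1.20, 1.04 and 0.87. Dkk3, a divergent member of the Dickkopf family, rose instead, with 68.8 and 54.5 CPM at E12.5, against 10.7 and 13.1 CPM at E10.5 (2.33, SE 0.25). Wnt5b, Wnt11 and Sp5 were not called without E12.5 replicate 1, E12.5 replicate 2 or E10.5 replicate 1 (adjusted p between 0.0807 and 0.289), and Dkk4 lost its call without E12.5 replicate 2 or E10.5 replicate 1 (adjusted p between 0.0558 and 0.0896). The number of feedback genes that fell was 5 without E10.5 replicate 1, 4 without E12.5 replicate 2, and 4 without the replicate block.

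Of 13 tested BMP feedback genes and antagonists 3 rose (23.1 percent, against 7.76 percent of all tested genes) and 2 fell (15.4 percent, against 7.07 percent), with a median of 0.56. Without E12.5 replicate 1, 0 rose and 0 fell, without E10.5 replicate 1, 0 rose and 1 fell, without E12.5 replicate 2, 3 rose and 1 fell, and without the replicate block 1 rose and 1 fell. Id3 and Id1 are inhibitors of basic helix-loop-helix factors that BMP signals induce. Id3 had 320 and 163 CPM at E12.5, against 107 and 97.1 CPM at E10.5 (1.18, SE 0.22). Id1 had 173 and 93.1 CPM at E12.5, against 85.2 and 70.9 CPM at E10.5 (0.72, SE 0.19), and in both genes the higher E12.5 library was replicate 1. Smad9, a BMP-responsive SMAD, had 8.86 and 6.4 CPM at E12.5, against 1.48 and 1.77 CPM at E10.5 (adjusted p = 0.0117). Bambi, a decoy receptor, fell (-0.63, SE 0.12), and so did the BMP antagonist Grem1, described with the mesenchymal genes below. Id3 and Smad9 were not called without E12.5 replicate 1 or E10.5 replicate 1 (adjusted p between 0.0593 and 0.103), and Id1 lost its call without E12.5 replicate 1, E10.5 replicate 1 or E10.5 replicate 2 (adjusted p between 0.0828 and 0.361). Bambi was not called without E12.5 replicate 1, E12.5 replicate 2 or E10.5 replicate 1 (adjusted p between 0.0725 and 0.112). Of the Notch pathway list, 1 of 12 rose and 1 fell (8.33 percent each, against 7.76 and 7.07 percent of all tested genes), a share near that of all genes. Lfng, a glycosyltransferase that tunes Notch receptors, rose by 0.65 (SE 0.14), and Heyl, a target gene, had 23.1 and 23.1 CPM at E12.5, against 42.9 and 55.9 CPM at E10.5 (-1.06, SE 0.23). The Notch receptors and Jagged ligands were not called. Lfng was not called without E12.5 replicate 1, E10.5 replicate 1 or E10.5 replicate 2 (adjusted p between 0.0787 and 0.193), and Heyl lost its call without E12.5 replicate 2 or E10.5 replicate 1 (adjusted p between 0.12 and 0.154).

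Keratins of simple epithelia fell and keratins of the basal layer rose. Krt8 had 34.3 and 41.8 CPM at E12.5, against 317 and 189.7 CPM at E10.5 (log2 fold change -2.74, SE 0.38, adjusted p = 0.00281). Krt18, its filament partner in simple epithelia, had 56.8 and 55.1 CPM at E12.5, against 269 and 177 CPM at E10.5 (log2 fold change -1.99, SE 0.27, adjusted p = 0.00257). In both genes the E12.5 libraries were close to each other and below both E10.5 libraries. Krt14, a keratin of the basal layer, had 1631 and 916 CPM at E12.5, against 139 and 143 CPM at E10.5 (log2 fold change 3.13, SE 0.21, adjusted p = 0.000243). Its partner Krt5 had 2978 and 1577 CPM at E12.5, against 1046 and 768 CPM at E10.5 (log2 fold change 1.29, SE 0.20, adjusted p = 0.00439). Krt15, a type I basal keratin, had 118 and 19.6 CPM at E12.5, against 3.32 and 3.62 CPM at E10.5 (log2 fold change 3.99, SE 0.63, adjusted p = 0.00475). Its rise was far larger in replicate 1 than in replicate 2, and its E11.5 libraries still stood at 4.5 and 4.27 CPM. Krt19 fell (-1.35, SE 0.34) and Krt7 was not called (0.27, SE 0.14). Of the 7 keratins in the list 3 rose and 3 fell (42.9 percent each, against 7.76 and 7.07 percent of all tested genes).

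Levels per transcript length can be compared between genes, and the authors' deposited FPKM values (fragments per kilobase of transcript and per 1000000 fragments) put Krt5 at 822 ± 312 FPKM at E12.5 and 325 ± 50.5 FPKM at E10.5 (SD, n = 2 each, here and in the next sentences). Krt14 stood at 581 ± 196 FPKM at E12.5 and 62.9 ± 5.19 FPKM at E10.5. Krt8 stood at 15.5 ± 3.19 FPKM at E12.5 and 101 ± 29.5 FPKM at E10.5, and Krt18 at 32.1 ± 0.594 FPKM at E12.5 and 125 ± 30.5 FPKM at E10.5. On this scale Krt14 stood above Krt8 and Krt18 in both E12.5 libraries and below both in both E10.5 libraries. Krt15 was not called without E10.5 replicate 1 (adjusted p = 0.0554), and Krt19 lost its call without E12.5 replicate 2, E10.5 replicate 1 or E10.5 replicate 2 (adjusted p between 0.0777 and 0.166). Krt5 was called with each library left out, but not without the replicate block (adjusted p = 0.108).

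**Figure D3:**
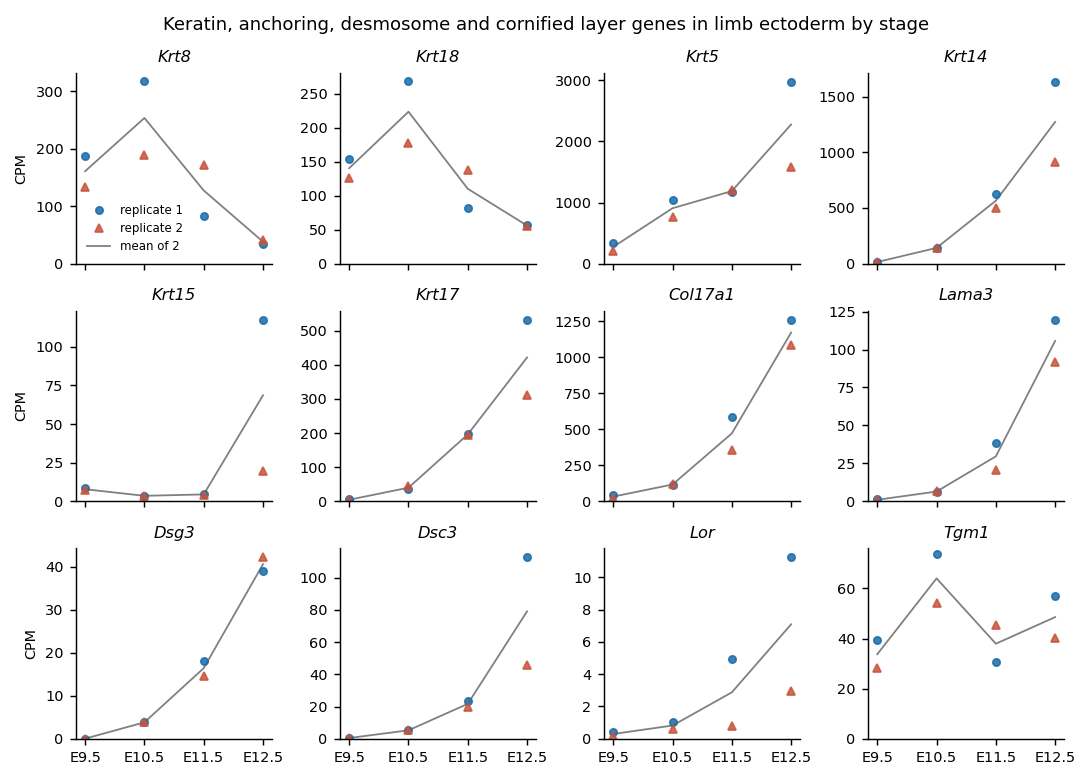
CPM of 12 keratin, anchoring, desmosome and cornified layer genes in ectoderm (vertical axes, each from 0) at the 4 stages, with circles for replicate 1, triangles for replicate 2 and a line through the mean of 2. Krt8 and Krt18 decline after E10.5 while Krt5, Krt14, Col17a1, Lama3, Dsg3 and Dsc3 climb, Krt15 is raised only at E12.5 and mainly in replicate 1, and Tgm1 shows no such climb.

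Genes that anchor epidermis to the dermis rose strongly. Hemidesmosomes are the junctions that tie keratin filaments through integrin and collagen XVII to the laminin below. Of 12 tested genes of the hemidesmosome and anchoring list 7 rose (58.3 percent, against 7.76 percent of all tested genes) and 1 fell, with a median of 1.09. Col17a1, the transmembrane collagen of hemidesmosomes, had 1259.7 and 1081 CPM at E12.5, against 113 and 119 CPM at E10.5 (log2 fold change 3.32, SE 0.20, adjusted p = 0.000152). Lama3, a chain of laminin-332, had 119.6 and 91.9 CPM at E12.5, against 6.2 and 6.51 CPM at E10.5 (log2 fold change 4.02, SE 0.24, adjusted p = 0.000152), and Lamb3, which encodes a partner chain, rose too (122 and 105 CPM at E12.5, against 32 and 25.9 CPM at E10.5; 1.98, SE 0.20). Col7a1, the collagen of anchoring fibrils, had 194 and 177 CPM at E12.5, against 15.5 and 37.9 CPM at E10.5 (log2 fold change 2.85, SE 0.29, adjusted p = 0.000799). Itgb4 (1.71, SE 0.14) and Dst, a plakin (1.54, SE 0.14), also rose. Itga6, the integrin partner of Itgb4, had 248 and 280.4 CPM at E12.5, against 396 and 365 CPM at E10.5 (-0.53, SE 0.14) and fell. Plec (0.39), Itga3 (-0.29), Cd151 (-0.38) and Fermt1 (0.21) were not called. Itga6 was not called without E12.5 replicate 1, E12.5 replicate 2 or E10.5 replicate 1 (adjusted p between 0.105 and 0.301). With any 1 of the 4 libraries left out 6 members were called higher, and 5 without the replicate block.

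Of the 18 basement membrane genes 5 rose (27.8 percent, against 7.76 percent of all tested genes) and 3 fell (16.7 percent, against 7.07 percent), with a median of 0.19. Lama1, the laminin chain of early embryonic basement membranes, had 14.9 and 19.6 CPM at E12.5, against 112 and 91.5 CPM at E10.5 (log2 fold change -2.56, SE 0.20, adjusted p = 0.000372). Col4a5 and Col4a6 encode collagen IV chains side by side on the X chromosome. Col4a5 had 191 and 127 CPM at E12.5, against 83.4 and 65.5 CPM at E10.5 (1.08, SE 0.12). Col4a6 had 85.8 and 44 CPM at E12.5, against 33 and 27.4 CPM at E10.5 (1.06, SE 0.21). Frem2, of the Fraser complex that ties epidermis to dermis before birth, had 856 and 1007 CPM at E12.5, against 557 and 553 CPM at E10.5 (0.75, SE 0.15). Frem1 of the same complex had 47.8 and 88.4 CPM at E12.5, against 141 and 246 CPM at E10.5 (-1.52, SE 0.22). Agrn (0.57) and Lamc1 (0.44) rose and Npnt (-0.56) fell. Col4a1, Col4a2, Lama5 and Lamb1 were not called. Col4a6 was not called without E12.5 replicate 1 or E10.5 replicate 1 (adjusted p between 0.069 and 0.0982), and Frem2 lost its call without E12.5 replicate 2, E10.5 replicate 1 or E10.5 replicate 2 (adjusted p between 0.061 and 0.106). Agrn was not called without E12.5 replicate 1, E10.5 replicate 1 or E10.5 replicate 2 (adjusted p between 0.0503 and 0.0709), and Npnt lost its call without E12.5 replicate 1, E12.5 replicate 2 or E10.5 replicate 1 (adjusted p between 0.0863 and 0.198). Lama1, Col4a5 and Frem1 were called with each of the 4 libraries left out, but Frem1 was not called without the replicate block (adjusted p = 0.115), and the number of members that rose dropped to 1 without E10.5 replicate 1, 2 without E10.5 replicate 2 or E12.5 replicate 1, 3 without E12.5 replicate 2 and 1 without the replicate block.

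Desmosomes, the junctions that join keratin filaments between neighbouring cells, had higher levels of the cadherins of stratified epidermis. Of 11 tested members 7 rose (63.6 percent, against 7.76 percent of all tested genes), 0 fell and the median was 0.54. Dsc3 had 113 and 45.7 CPM at E12.5, against 5.24 and 5.26 CPM at E10.5 (log2 fold change 3.80, SE 0.31, adjusted p = 0.000396). Dsg3 had 39.1 and 42.2 CPM at E12.5, against 3.84 and 3.81 CPM at E10.5 (log2 fold change 3.40, SE 0.21, adjusted p = 0.000152). Dsc2 and Dsg2, the cadherins of simple epithelia, were not called (0.21 and 0.28). The linkers Pkp1 (1.56, SE 0.19) and Pkp3 (1.11, SE 0.13) rose, and Dsp, a linker to keratin filaments, had 1610.3 and 1539 CPM at E12.5, against 737 and 663 CPM at E10.5 (log2 fold change 1.17, SE 0.10, adjusted p = 0.000545). Perp and Jup rose by 0.54 each, and Pkp2 and Pkp4 were not called. Summed over the list, levels were 3673 and 3153 CPM at E12.5, against 2004 and 1761 CPM at E10.5. The count of desmosome genes that rose ranged from 5 to 6 when 1 of the 4 libraries was left out, and was 4 without the replicate block. Of 15 tested tight junction genes 2 rose (Cldn1, 1.17, SE 0.16, and Marveld2, 0.69, SE 0.14), and 2 fell (Tjp3, -1.23, SE 0.22, and Cldn7, -1.02, SE 0.18). Each count was 13.3 percent of those tested, where 7.76 percent of all tested genes rose and 7.07 percent fell. Marveld2 was not called when any 1 of the 4 libraries was left out (adjusted p between 0.0782 and 0.0976), and Tjp3 lost its call without E12.5 replicate 1 or E10.5 replicate 1 (adjusted p between 0.0726 and 0.0913). Cldn7 was not called without E12.5 replicate 1, E12.5 replicate 2 or E10.5 replicate 1 (adjusted p between 0.0544 and 0.0745).

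The periderm list has 18 genes, of which 13 passed the filter on low counts. Of these 4 rose (30.8 percent, against 7.76 percent of all tested genes), 1 fell (7.69 percent, against 7.07 percent) and 8 were not called, with a median of 0.32. A low gene can pass the filter through the group where it is higher. These counts therefore describe the members that passed and not the list. Krt17 had 532 and 311 CPM at E12.5, against 35.8 and 43.3 CPM at E10.5 (log2 fold change 3.37, SE 0.23, adjusted p = 0.000238), and Krt6a, a keratin of periderm and of activated epidermis, had 15.7 and 5.22 CPM at E12.5, against 0.262 and 0.657 CPM at E10.5 (log2 fold change 4.29, SE 0.63, adjusted p = 0.00343). Krt6a has a near-identical neighbour, Krt6b, and reads may be split between them. Evpl (envoplakin) rose modestly (0.83, SE 0.19), and Krt23 fell (-1.37, SE 0.36). Grhl3, a factor of periderm and barrier formation, was not called (157 and 139.6 CPM at E12.5, against 119 and 119 CPM at E10.5; log2 fold change 0.32, SE 0.17, adjusted p = 0.259), nor were Sfn, Ppl, Cldn6, Cldn23, Krt80 and Rhov. Krt4, Krt13, Krt6b, Muc1 and Sprr1a were not tested. Evpl was not called when any 1 of the 4 libraries was left out (adjusted p between 0.0774 and 0.202), and Krt23 lost its call without E12.5 replicate 1, E12.5 replicate 2 or E10.5 replicate 1 (adjusted p between 0.0955 and 0.31). Krt17 and Krt6a were the 2 genes of this list still called higher with each library left out and without the replicate block.

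Genes of the suprabasal and cornified layers were low at both stages. Of 22 listed genes 12 were tested, and 10 were too low for the test, among them Ivl, Flg and Cdsn. Of those tested 6 rose (50.0 percent, against 7.76 percent of all tested genes), 0 fell and the median was 1.79. Because a low gene can pass the filter through its higher group, this count describes the members that passed and not the list. Krt1, the first keratin of the suprabasal layer, had 10.9 and 4.11 CPM at E12.5, against 2.2697 and 1.25 CPM at E10.5 (log2 fold change 2.02, SE 0.36, adjusted p = 0.00784), and its partner Krt10 had 5.8 and 3.98 CPM at E12.5, against 3.49 and 3.88 CPM at E10.5 and was not called. Lor, a protein of the cornified envelope, had 11.2 and 2.94 CPM at E12.5, against 1.05 and 0.592 CPM at E10.5 (2.93, SE 0.45). Abca12, a lipid transporter of the skin barrier, had 16.1 and 14.3 CPM at E12.5, against 1.57 and 1.77 CPM at E10.5 (3.19, SE 0.53), Dsg1a had 13.6 and 4.83 CPM at E12.5, against 1.13 and 0.263 CPM at E10.5 (3.73, SE 0.59), and Calml3 had 7.81 and 4.51 CPM at E12.5, against 0.611 and 0.855 CPM at E10.5 (2.98, SE 0.41). Krt2, another late keratin, had 73 counts pooled over libraries at E12.5 and 1 at E10.5, a ratio of 52.3 with a counting interval from 9.10 to 2090. Tgm1, the crosslinking enzyme of the envelope, was not called (-0.40, SE 0.24). Summed levels of the list were 144.3 and 89.9 CPM at E12.5, against 97.1 and 75.7 CPM at E10.5. Krt1 was not called without E12.5 replicate 1 or E10.5 replicate 1 (adjusted p between 0.0812 and 0.141), and Abca12 and Dsg1a lost their calls without E12.5 replicate 1 (adjusted p between 0.0616 and 0.0792). Krt2 was not called without E12.5 replicate 2, E10.5 replicate 1 or E10.5 replicate 2 (adjusted p between 0.0787 and 0.0989). The count of those that rose was 3 without E10.5 replicate 1, 2 without E12.5 replicate 1 and 1 without the replicate block.

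Among epidermal transcription factors 7 of 22 tested rose (31.8 percent, against 7.76 percent of all tested genes), 1 fell (4.55 percent, against 7.07 percent) and the median was 0.36. Tfap2b had 417 and 483 CPM at E12.5, against 68.4 and 103 CPM at E10.5 (log2 fold change 2.40, SE 0.22, adjusted p = 0.000617). Klf4, needed for the skin barrier, had 38.5 and 34.5 CPM at E12.5, against 11.9 and 13.7 CPM at E10.5 (log2 fold change 1.52, SE 0.15, adjusted p = 0.000746), and Klf5 had 25.5 and 26.2 CPM at E12.5, against 8.12 and 9.73 CPM at E10.5 (log2 fold change 1.54, SE 0.17, adjusted p = 0.00118). Every E12.5 library exceeded every E10.5 library in these genes. Foxq1, a forkhead factor of the hair shaft, was low (6.17 and 3.46 CPM at E12.5, against 0.873 and 0.723 CPM at E10.5; 2.54, SE 0.49). Grhl1 (0.94), Cebpa (0.82) and Trp63 (0.41) also rose. Gata3 fell, with 5.76 and 6.07 CPM at E12.5, against 16.3 and 16.8 CPM at E10.5 (-1.48, SE 0.26). Grhl2, Ovol1, Ovol2, Tfap2a and Tfap2c were not called. Foxq1 was not called without E12.5 replicate 1 or E10.5 replicate 1 (adjusted p between 0.104 and 0.125), and Gata3 lost its call without E12.5 replicate 2 or E10.5 replicate 1 (adjusted p between 0.0593 and 0.0736). The number that rose was 3 without E10.5 replicate 1, 4 without E10.5 replicate 2, 3 without E12.5 replicate 1 and 3 without the replicate block; Tfap2b, Klf4 and Klf5 were called in all of these.

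Of 12 tested signals for hair and other skin appendages 5 rose (41.7 percent, against 7.76 percent of all tested genes) and 3 fell (25 percent, against 7.07 percent). The number that fell was 0 without E10.5 replicate 1 or E12.5 replicate 1, 1 without either of the other 2 libraries and 1 without the replicate block, and 3 rose without the replicate block. Sostdc1, a secreted antagonist of WNT and BMP signals in placodes, had 43.5 and 39.6 CPM at E12.5, against 16.9 and 19.1 CPM at E10.5 (1.21, SE 0.14). Sox21 had 10.3 and 6.27 CPM at E12.5, against 2.97 and 1.77 CPM at E10.5 (1.80, SE 0.28), Tnfrsf19 rose by 0.80, and Cux1, a homeobox factor, had 323 and 371 CPM at E12.5, against 191 and 199.6 CPM at E10.5 (0.83, SE 0.10). Edar, the receptor of ectodysplasin, fell slightly (47.5 and 65.9 CPM at E12.5, against 66.4 and 85.5 CPM at E10.5), and the related receptor Eda2r had 1.96 and 1.96 CPM at E12.5, against 4.89 and 7.3 CPM at E10.5. Tnfrsf19 is a receptor of the same family, and Msx2 was the fifth gene that rose. Shh had 0 counts at E12.5 and 42 at E10.5, at least 19.5-fold lower against a floor of 3 counts over the group. Shh is made by posterior limb mesenchyme, where it averaged 0.113 CPM at E12.5 and 48.9 CPM at E10.5. Edar and Eda2r were not called when any 1 of the 4 libraries was left out (adjusted p between 0.0787 and 0.301), and Sox21 lost its call without E10.5 replicate 1 (adjusted p = 0.0583). Shh was not called without E12.5 replicate 1 or E10.5 replicate 1 (adjusted p between 0.057 and 0.0923).

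The HoxC cluster split by position. Hox genes lie in the order in which they act along the body axis, and the HoxC genes at the 5′ end are known for their part in nails and hair. The 4 genes at that end rose. Hoxc12 had 62 and 45.7 CPM at E12.5, against 2.36 and 3.42 CPM at E10.5 (log2 fold change 4.17, SE 0.24, adjusted p = 0.000258), Hoxc11 had 52.9 and 33.7 CPM at E12.5, against 2.62 and 2.83 CPM at E10.5 (log2 fold change 3.96, SE 0.27, adjusted p = 0.000396), Hoxc13 had 124 and 103 CPM at E12.5, against 34.8 and 32.7 CPM at E10.5 (log2 fold change 1.75, SE 0.17, adjusted p = 0.000656), and Hoxc10 had 49.2 and 33.3 CPM at E12.5, against 18.4 and 17.4 CPM at E10.5 (log2 fold change 1.18, SE 0.16, adjusted p = 0.00229). Toward the other end, Hoxc8 had 4.98 and 11.4 CPM at E12.5, against 85.2 and 70.5 CPM at E10.5 (log2 fold change -3.34, SE 0.39, adjusted p = 0.00146), Hoxc6 had 6.4 and 12.3 CPM at E12.5, against 37.7 and 37.7 CPM at E10.5 (-2.07, SE 0.29), and Hoxc5 had 2.15 and 7.12 CPM at E12.5, against 30.6 and 30.6 CPM at E10.5 (-2.87, SE 0.44). Hoxc9 and Hoxc4, at -0.55 and -0.67, were not called. Each of these 7 calls was kept when any 1 of the 4 libraries was left out, and Hoxc5 was not called without the replicate block (adjusted p = 0.0611). In mesoderm the HoxC genes summed to 0.654 and 0.183 CPM at E12.5, against 6.18 and 3.96 CPM at E10.5. Neighbouring and antisense transcripts overlap in Hox clusters, and reads from opposite strands may not have been told apart.

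No gene of the Lin28 axis rose and several fell strongly. LIN28 proteins block maturation of let-7 microRNAs in early embryos, and their decline is part of the developmental timing of many tissues. Of 10 tested members 5 fell (50.0 percent, against 7.07 percent of all tested genes) and 0 rose, with a median of -0.55. Lin28a had 0.594 and 5.55 CPM at E12.5, against 41.9 and 39.6 CPM at E10.5 (log2 fold change -3.99, SE 0.58, adjusted p = 0.00318), Lin28b had 5.3 and 11.495 CPM at E12.5, against 55.3 and 64 CPM at E10.5 (log2 fold change -2.93, SE 0.32, adjusted p = 0.00109), and Trim71, a let-7 target and RNA-binding protein, had 9.82 and 27.4 CPM at E12.5, against 93.4 and 109.7 CPM at E10.5 (log2 fold change -2.59, SE 0.26, adjusted p = 0.000746). In each of these genes E12.5 replicate 1 was lower than E12.5 replicate 2, and both lay below both E10.5 libraries. Arid3b had 96.3 and 171 CPM at E12.5, against 379 and 278 CPM at E10.5 (-1.35, SE 0.27) and Igf2bp1 fell by 0.76. Hmga2, a let-7 target as well, was not called (0.35, SE 0.12). In mesoderm Hmga2 averaged 161 CPM at E12.5 and 636 CPM at E10.5, and the difference between the layers was called (2.31, adjusted p = 6.88e-05). Arid3b was not called without E12.5 replicate 1 or E10.5 replicate 1 (adjusted p between 0.0786 and 0.129). The count that fell was 3 without E12.5 replicate 1, 3 without E10.5 replicate 1 and 1 without the replicate block.

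Igdcc3, an immunoglobulin superfamily receptor of unsettled function, had 2.7 and 7.05 CPM at E12.5, against 365 and 196 CPM at E10.5 (log2 fold change -5.94, SE 0.65, adjusted p = 0.00115), with 17.5 and 50.3 CPM at E11.5. It fell in mesoderm as well, where it averaged 1.89 CPM at E12.5 and 545 CPM at E10.5. Promoters of the called genes with the largest changes or named in every case were searched for 4 motifs. Among those that fell, Igdcc3 and Lin28a had the largest falls with any of the 4 in the promoter. Lin28a was not among the 10 largest falls, the smallest of which was -4.56. Both promoters hold the letters CTTTGAA, a TCF/LEF core, on either strand. The 250 bases before the start of each gene are shown. They are from RefSeq on GRCm38.p6 in the orientation of the gene, with the match in capitals, at chr9:65140904-65141153 (plus strand) and chr4:134018817-134019066 (minus strand).
Igdcc3: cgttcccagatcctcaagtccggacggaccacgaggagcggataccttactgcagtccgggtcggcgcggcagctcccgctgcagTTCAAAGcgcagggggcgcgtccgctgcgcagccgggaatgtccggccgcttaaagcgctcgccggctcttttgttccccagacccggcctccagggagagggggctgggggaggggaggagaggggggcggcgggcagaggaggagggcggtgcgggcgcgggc
Lin28a: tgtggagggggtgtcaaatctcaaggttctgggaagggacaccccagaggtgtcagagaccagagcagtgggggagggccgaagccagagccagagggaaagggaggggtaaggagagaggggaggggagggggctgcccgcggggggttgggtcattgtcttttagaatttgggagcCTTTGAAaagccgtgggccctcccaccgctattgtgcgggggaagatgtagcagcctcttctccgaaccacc
The match starts 165 bases before the start of Igdcc3, where it reads TTCAAAG because it lies on the other strand, and 72 bases before that of Lin28a. The same letters were found in 3.18 percent of 10646 promoters of tested genes, in 2.95 percent of those of genes that fell and 3.49 percent of those of genes that rose. A match of letters does not show that a factor binds there.

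Cell division genes changed little. Of 24 tested 3 fell, a larger share than the 7.07 percent of all tested genes, and 0 rose, against 7.76 percent. The median was -0.20 and all 24 fold changes were below 0, the lowest at -0.63. Ccne1 had 36.2 and 34.6 CPM at E12.5, against 62.8 and 47.2 CPM at E10.5, Rrm2 had 184 and 196 CPM at E12.5, against 283 and 265 CPM at E10.5, and Bub1 had 65.3 and 104 CPM at E12.5, against 98.5 and 132 CPM at E10.5, where the groups overlapped. Mki67 (-0.09, SE 0.18) and Top2a (-0.08, SE 0.12) were not called. Ccne1 was not called without E12.5 replicate 1, E12.5 replicate 2 or E10.5 replicate 1 (adjusted p between 0.0623 and 0.194), and Rrm2 lost its call without E12.5 replicate 1, E10.5 replicate 1 or E10.5 replicate 2 (adjusted p between 0.0684 and 0.197). Bub1 was not called when any 1 of the 4 libraries was left out (adjusted p between 0.0678 and 0.396). Of the cell cycle inhibitors 2 of 11 rose, Rbl2 (1.08, SE 0.20) and Btg1 (0.87, SE 0.09), and 2 fell, Cdkn1c (-0.53, SE 0.12) and Rb1 (-0.52, SE 0.15). Each count was 18.2 percent of those tested, where 7.76 percent of all tested genes rose and 7.07 percent fell. Btg1 was the inhibitor whose call was kept with each library left out. Rbl2 was not called without E12.5 replicate 1 or E10.5 replicate 1 (adjusted p between 0.0982 and 0.128), and Cdkn1c lost its call without E12.5 replicate 1, E10.5 replicate 1 or E10.5 replicate 2 (adjusted p between 0.0638 and 0.241). Rb1 was not called when any 1 of the 4 libraries was left out (adjusted p between 0.0586 and 0.379).

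The largest rises, among protein-coding genes with at least 10 CPM at E12.5, were led by genes better known from teeth and connective tissue. Enam and Ambn encode enamelin and ameloblastin, matrix proteins of tooth enamel. Enam had 16.2 and 10.3 CPM at E12.5, against 0.0873 and 0 CPM at E10.5, with 511 counts pooled over libraries at E12.5 and 1 at E10.5, a ratio of 366 with a counting interval from 65.5 to 14500. Ambn had 190.2 and 53.8 CPM at E12.5, against 2.79 and 3.75 CPM at E10.5 (log2 fold change 4.88, SE 0.47, adjusted p = 0.000683) and was already raised at E11.5 (59.8 and 14.4 CPM). The genes lie 19.4 kb apart on the plus strand of chromosome 5, at chr5:88455991-88468531 and chr5:88487975-88506049 (mm10). In mesoderm Enam averaged 0 CPM at both stages and Ambn averaged 0.0872 CPM at E12.5 and 0.0863 CPM at E10.5. Dcn, which encodes the matrix proteoglycan decorin, had 25.1 and 10.6 CPM at E12.5, against 0 and 0.197 CPM at E10.5, a pooled ratio of 170 with a counting interval from 58.0 to 827, and averaged 0.832 CPM at E12.5 and 0.361 CPM at E10.5 in mesoderm, below its E12.5 level in ectoderm. Col8a1, a collagen VIII chain, had 16.1 and 5.29 CPM at E12.5, against 0 and 0.131 CPM at E10.5, a ratio of 155 with an interval from 42.7 to 1290.

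Other genes in this group were Hpgd, the enzyme that inactivates prostaglandins, with 23.9 and 27.6 CPM at E12.5, against 0.611 and 0.329 CPM at E10.5 (log2 fold change 5.85, SE 0.54, adjusted p = 0.000625), and Otx1, a homeobox factor, with 116 and 96.4 CPM at E12.5, against 2.01 and 4.14 CPM at E10.5 (log2 fold change 5.02, SE 0.37, adjusted p = 0.000308). Wnt3a had 20.2 and 7.51 CPM at E12.5, against 0.698 and 0.263 CPM at E10.5 (log2 fold change 4.81, SE 0.48, adjusted p = 0.000751). Trpc4, a cation channel, had 20.6 and 15.3 CPM at E12.5, against 0.524 and 0.46 CPM at E10.5 (log2 fold change 5.15, SE 0.46, adjusted p = 0.000545), Fndc1 had 42.9 and 15.5 CPM at E12.5, against 0.873 and 0.855 CPM at E10.5 (log2 fold change 4.95, SE 0.47, adjusted p = 0.000656), and Gpa33, a surface antigen of epithelia, had 16.8 and 4.9 CPM at E12.5, against 0.524 and 0.263 CPM at E10.5 (log2 fold change 4.65, SE 0.38, adjusted p = 0.000414). A call and a rise in both replicate pairs were conditions for entering this group. All 10 genes were also called with each of the 4 libraries left out and without the replicate block. The smallest of these log2 fold changes was 4.65, and the next gene after it stood at 4.42.

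Promoters are shown for Enam and Trpc4. They had the largest rises of this group among genes whose promoter sequence held any of the 4 motifs searched. Both hold the letters TATAAA, those of the TATA box, on either strand. The 250 bases before the gene start are given as above, at chr5:88487725-88487974 and chr3:54155807-54156056 (both on the plus strand), with the match in capitals.
Enam: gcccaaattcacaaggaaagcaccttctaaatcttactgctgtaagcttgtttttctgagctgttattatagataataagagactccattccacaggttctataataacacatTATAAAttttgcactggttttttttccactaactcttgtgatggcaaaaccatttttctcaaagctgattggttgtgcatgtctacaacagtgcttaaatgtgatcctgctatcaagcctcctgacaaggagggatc
Trpc4: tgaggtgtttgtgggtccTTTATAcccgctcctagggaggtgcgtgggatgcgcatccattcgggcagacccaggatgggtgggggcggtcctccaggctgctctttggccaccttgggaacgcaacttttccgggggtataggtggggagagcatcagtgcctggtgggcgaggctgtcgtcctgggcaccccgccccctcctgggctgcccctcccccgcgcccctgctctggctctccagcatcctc
The match starts 137 bases before the start in Enam, and 232 bases before it in Trpc4, where it reads TTTATA on the strand shown. A match of letters at these positions does not show a working TATA box. These letters were found in 8.41 percent of promoters of genes that rose, 6.69 percent of those of genes that fell and 5.91 percent of all 10646. The letters ACCGGT, a Grainyhead-like core, were found in 3.25, 2.95 and 2.75 percent of the same sets, and TGANTCA, the AP-1 site, in 5.17, 4.95 and 3.85 percent. Of 37 called genes with the largest changes or named in every case, 23 had a promoter sequence. Of these, 10 held at least 1 of the 4 motifs on either strand. The share of all promoters that hold any of the 4 was not computed, so this count cannot be read as an enrichment.

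The largest falls besides the FGFs and Igdcc3 included Slc35d3, of a family of nucleotide sugar transporters, with 0 and 0.0653 CPM at E12.5, against 20.1 and 9.73 CPM at E10.5, a pooled ratio of 527 in favour of E10.5 with an interval from 94.1 to 20900. Tubb6, a beta-tubulin, had 9 and 8.23 CPM at E12.5, against 345 and 208 CPM at E10.5 (log2 fold change -4.99, SE 0.45, adjusted p = 0.000545). Ppp2r2c, a regulatory subunit of protein phosphatase 2A, had 1.83 and 2.09 CPM at E12.5, against 68.7 and 36.2 CPM at E10.5 (log2 fold change -4.78, SE 0.66, adjusted p = 0.00264), and Clca1 had 1.51 and 0.849 CPM at E12.5, against 46.8 and 28.9 CPM at E10.5 (log2 fold change -4.97, SE 0.82, adjusted p = 0.0057). In these genes both E12.5 libraries stood far below both E10.5 libraries. Clca1 was not called without E12.5 replicate 1 (adjusted p = 0.0625). The smallest of the 10 largest falls was -4.56, and the next gene after it stood at -4.52.

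The rest of the largest falls were in genes with a higher level in mesoderm. Hoxa11, a Hox gene of the limb mesenchyme, had 0.64 and 0.261 CPM at E12.5, against 23.5 and 16.2 CPM at E10.5, and averaged 14.3 CPM at E12.5 and 155 CPM at E10.5 in mesoderm. Grem1 had 0.183 and 0.522 CPM at E12.5, against 19.1 and 9.47 CPM at E10.5 (log2 fold change -5.57, SE 0.91, adjusted p = 0.00532), and 3.9 CPM at E12.5 and 57.6 CPM at E10.5 in mesoderm. Hbb-bh1, an embryonic globin of red cells, had 1.51 and 0.457 CPM at E12.5, against 17.6 and 40.2 CPM at E10.5, and 78.1 CPM at E12.5 and 889 CPM at E10.5 in mesoderm; it was not called without the replicate block (adjusted p = 0.0637). Of the limb mesenchyme markers 5 of 17 tested fell (29.4 percent, against 7.07 percent of all tested genes) and 0 rose, with a median of -1.12. Those that fell were Grem1, Shox2 (-5.10, SE 0.69), Twist2 (-2.37, SE 0.61), Pdgfra (-1.72, SE 0.33) and Prrx1 (-1.47, SE 0.37). Prrx1 had 19.3 and 19.2 CPM at E12.5, against 62.2 and 46.3 CPM at E10.5. Twist1 (-0.38), Hoxd13 (-0.49) and Col1a1 (0.29) were not called. Pdgfra in ectoderm at E10.5 exceeded its mesoderm mean of 215 CPM, with 111 and 174 CPM at E12.5, against 434 and 484 CPM at E10.5. Over all genes that fell, 300 (29.3 percent) had a higher E10.5 mean in mesoderm than in ectoderm, against 46.9 percent of all tested genes. The part of mesenchymal RNA in these falls was not tested. Grem1 was not called without E12.5 replicate 1 (adjusted p = 0.0613), and Twist2 lost its call without E12.5 replicate 1, E10.5 replicate 1 or E10.5 replicate 2 (adjusted p between 0.0791 and 0.386). Pdgfra was not called without E12.5 replicate 1 or E10.5 replicate 1 (adjusted p between 0.0675 and 0.115), and Prrx1 lost its call when any 1 of the 4 libraries was left out (adjusted p between 0.0514 and 0.27). The number of mesenchyme markers that fell was 1 without E12.5 replicate 1, 3 without either E10.5 library and 2 without the replicate block.

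**Figure D4:**
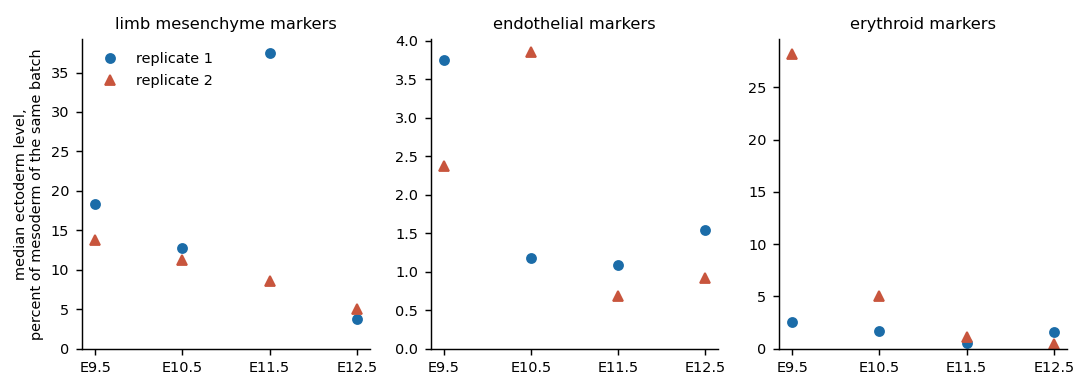
Median level of marker genes in each ectoderm library as a percent of their level in the mesoderm of the same embryos (vertical axes), by stage, for limb mesenchyme, endothelial and erythroid markers, with circles for replicate 1 and triangles for replicate 2. Mesenchyme markers stand at 3.71 and 5.10 percent at E12.5, against 12.8 and 11.2 percent at E10.5, with E11.5 replicate 1 at 37.5 percent, while endothelial markers stay under 4 percent in all libraries.

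Endothelial markers summed to 15.3 and 9.23 CPM at E12.5, against 7.10 and 18.1 CPM at E10.5, and 0 of 12 were called. Macrophage and Langerhans cell markers summed to 5.54 and 4.68 CPM at E12.5, against 4.17 and 6.88 CPM at E10.5, with 0 of 4 tested members called and 2 and 3 of the 15 listed at 0 counts in the E12.5 libraries, against 7 and 2 in the E10.5 libraries. E11.5 replicate 1 held 41.1 CPM of these markers. Erythroid markers summed to 48.5 and 13.9 CPM at E12.5, against 84.3 and 225.6 CPM at E10.5, and 1 of 11 fell (9.09 percent, against 7.07 percent of all tested genes). That number was 6 without E12.5 replicate 1. Melanoblast and glia markers summed to 213.3 and 220.3 CPM at E12.5, against 133.3 and 142.1 CPM at E10.5, most of it Erbb3. Of 7 tested 2 rose: Dct, an enzyme of melanin synthesis in melanoblasts (13.1 and 8.16 CPM at E12.5, against 0.524 and 0.592 CPM at E10.5; log2 fold change 4.17, SE 0.51, adjusted p = 0.00168), and Erbb3 (177 and 184 CPM at E12.5, against 103 and 110.2 CPM at E10.5; 0.76, SE 0.16), a receptor that epithelia also express. The 2 genes that rose were 28.6 percent of those tested in this list, against 7.76 percent of all tested genes. Pmel, Kit, Mitf and Sox10 were not called. Of the muscle precursor markers 2 of 6 tested fell (33.3 percent, against 7.07 percent of all tested genes). Pax7 had 0.0914 and 0.261 CPM at E12.5, against 4.36 and 2.24 CPM at E10.5. Met had 24.8 and 29.8 CPM at E12.5, against 85.6 and 73.3 CPM at E10.5. The whole list summed to 26.8 and 33.1 CPM at E12.5, against 94.6 and 80.5 CPM at E10.5, most of it Met. In mesoderm the list summed to 5.75 and 5.31 CPM at E12.5, against 8.87 and 8.46 CPM at E10.5, below the ectoderm at both stages. Cartilage markers were not low in ectoderm: they summed to 627.4 and 653.7 CPM at E12.5, against 2264 and 1510 CPM at E10.5. In ectoderm 1 of 12 tested was higher, Col9a3 (0.78, SE 0.19), and 2 were lower, Col2a1 (475 and 458 CPM at E12.5, against 1903 and 1164 CPM at E10.5; -1.68, SE 0.20) and Hapln1 (24.9 and 50.2 CPM at E12.5, against 195 and 194 CPM at E10.5; -2.47, SE 0.27). Of the cartilage markers tested, 8.33 percent were thus higher and 16.7 percent lower, against 7.76 and 7.07 percent of all tested genes. Col2a1 averaged 412 CPM at E12.5 and 30.6 CPM at E10.5 in mesoderm, below the ectoderm at both stages. Erbb3 and Col9a3 were not called when any 1 of the 4 libraries was left out (adjusted p between 0.0649 and 0.204), and Pax7 lost its call without E12.5 replicate 1 (adjusted p = 0.0722).

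Of 18 surface epithelium markers 6 fell (33.3 percent, against 7.07 percent of all tested genes) and 2 rose (11.1 percent, against 7.76 percent), with a median of -0.37. Besides Krt8 and Krt18 the falls were Epcam (-0.46, SE 0.12), Prom2 (-0.98), Cldn7 and St14, a membrane protease, with 199 and 127 CPM at E12.5, against 515 and 344 CPM at E10.5 (-1.40, SE 0.25). Lamb3 and Trp63 rose. Cdh1, Esrp1, Esrp2, Grhl2, Spint1 and Spint2 were not called. Dissociation and stress genes had 3 of 15 members higher (20 percent, against 7.76 percent of all tested genes) and 1 lower (6.67 percent, against 7.07 percent). The heat shock pair Hspa1a (1.56, SE 0.36) and Hspa1b (1.76, SE 0.46), whose near-identical sequences share reads, and Jun (0.59, SE 0.14) rose, and Ier2 (-0.83, SE 0.14) fell. Epcam and Hspa1b were not called when any 1 of the 4 libraries was left out (adjusted p between 0.0568 and 0.358), and St14 lost its call without E12.5 replicate 2 or E10.5 replicate 1 (adjusted p between 0.056 and 0.0692). Hspa1a was not called without E12.5 replicate 1, E10.5 replicate 1 or E10.5 replicate 2 (adjusted p between 0.087 and 0.314), and Jun lost its call without E12.5 replicate 1, E12.5 replicate 2 or E10.5 replicate 1 (adjusted p between 0.0576 and 0.26). Ier2 was not called without E12.5 replicate 1 (adjusted p = 0.064). No stress gene was called higher without E12.5 replicate 1, and the number of surface epithelium markers that fell was 2 without E10.5 replicate 1 or E12.5 replicate 2, 3 without E12.5 replicate 1 and 2 without the replicate block.

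**Figure D5:**
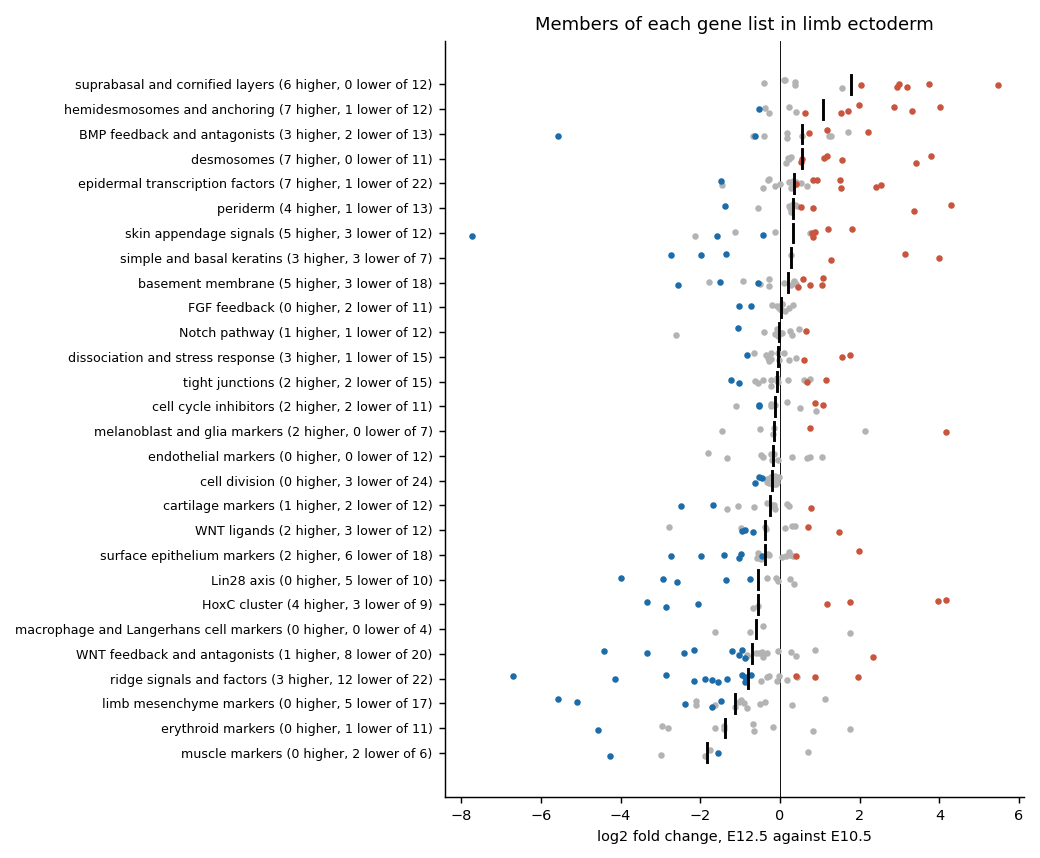
Log2 fold change of every tested member of the 28 gene lists (points; red higher at E12.5, blue lower, grey not called), E12.5 against E10.5, with a black bar at the median of each list and the counts in its label. Medians run from -1.82 for the muscle markers to 1.79 for the 12 of 22 suprabasal genes that passed the filter on low counts, with the ridge list at -0.81.

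The mesoderm of the same embryos shows which changes differed between the layers. The change from E10.5 to E12.5 differed between ectoderm and mesoderm in 2009 of 15501 genes (13 percent), with the ectoderm change above the mesoderm change in 787 (5.08 percent) and below it in 1222 (7.88 percent). Of the 2146 genes called in ectoderm 790 (36.8 percent) were also called here. Among named genes, the ectoderm change exceeded that in mesoderm for Krt15 (5.78, adjusted p = 0.000347), Krt5 (3.41, adjusted p = 0.00785), Krt14 (3.40, adjusted p = 0.0139), Col17a1 (4.20, adjusted p = 7.48e-05) and Hoxc13 (3.47, adjusted p = 0.0312). Krt5 averaged 2.55 CPM at E12.5 and 10.539 CPM at E10.5 in mesoderm, and Krt14 1.43 CPM at E12.5 and 1.5 CPM at E10.5. For Fgf8 a difference between the layers was not called (1.30, adjusted p = 0.451). Its mesoderm level was low, at 0.118 CPM at E12.5 and 6.21 CPM at E10.5, so this does not show a like fall in both layers. For Hoxc13 the mesoderm level was low as well, since all HoxC genes together summed there to 0.654 and 0.183 CPM at E12.5.

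In other genes, too, the change differed between the layers. Dlx5 was not called in ectoderm but rose in mesoderm, where it averaged 82 CPM at E12.5 and 14.2 CPM at E10.5, and the difference was -2.82 (adjusted p = 7.96e-05). Wnt5a fell in ectoderm and averaged 1075 CPM at E12.5 and 514 CPM at E10.5 in mesoderm (-2.03, adjusted p = 0.000228). Col2a1 likewise ended lower in ectoderm and higher in mesoderm (-5.43, adjusted p = 9.82e-05). Sp9 rose in both layers, by more in mesoderm, where it averaged 31.2 CPM at E12.5 and 0.788 CPM at E10.5 (-3.46, adjusted p = 0.00257). Lin28a and Igdcc3 fell in both layers, by less in ectoderm (3.48, adjusted p = 0.00219, and 2.12, adjusted p = 0.00246). The number of genes whose change differed between the layers was 475 with neither embryo batch nor replicate number in the fit. It also dropped when the ectoderm and mesoderm libraries of an embryo batch at E12.5 or E10.5 were left out together.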

How the data were processed

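Distal forelimb ectoderm and mesoderm of mouse embryos were sequenced as stranded polyA RNA libraries, 2 per layer and stage. Per the submitters' processing notes, the build was mm10 and the tools were STAR 2.6.0c, bedtools 2.27.1, cutadapt 1.16 and Cufflinks 2.2.1. Neither the counter nor its strand setting is given in the sources used here. Mitochondrial genes and the per-exon counts were not analysed here. The authors deposited raw read counts per gene, the unit tested here, and FPKM values per gene from Cufflinks (per the submitters' processing notes), used to compare genes and as an alternative. The 16 libraries were grouped by their labels.

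The 8 ectoderm libraries were fitted together in edgeR 4.0.16 (R 4.3.3; quasi-likelihood F test, TMM scaling, filterByExpr), with stage and replicate number as terms and a Benjamini-Hochberg adjusted p under 0.05 over 14476 genes. The E11.5 and E9.5 libraries add to the estimate of the spread, which rests on 3 residual degrees of freedom. The replicate number marks the RNA kit per the labels, and deviations of same-numbered libraries correlated across genes at 0.507 to 0.673 for every pair of stages. The difference between layers was tested over 16 libraries with embryo batch as a block. Alternatives used DESeq2 1.42.0, limma 3.58.1 and the settings given in the closing section. The scripts were tested on simulated data.

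Genes were named by rule: the 10 protein-coding genes with the largest called change in each direction, the same sign in both replicate pairs and at least 10 CPM at the higher stage; up to 4 called members per list and direction; and 24 genes always named. The other members of a list are given as part of its count, and a few are not reported here by name. The gene lists and members were chosen with earlier results of these data known, so they are no independent support. Counting intervals are 95 percent, cover counting error only, and treat reads as independent. Gene positions are from GENCODE M21, which held 53740 of 53800 gene IDs.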

Additional observations from a re-analysis of the deposited data

Results flagged for a closer look

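These genes had a change, E12.5 against E10.5, that differed between ectoderm and mesoderm in edgeR's test of the difference itself (embryo batch as a block, adjusted p under 0.05). Each value is the log2 change in ectoderm minus that in mesoderm. A positive value need not be a rise in ectoderm: Sp8, Lin28a and Igdcc3 fell there, and Trp63 rose modestly. The difference was positive for Dcn (6.07), Otx1 (5.99), Krt15 (5.78), Ambn (5.53), Gpa33 (5.31), Wnt7a (4.91), Hpgd (4.71), Fndc1 (3.71), Lin28a (3.48), Hoxc13 (3.47), Krt5 (3.41), Krt14 (3.40), Trp63 (2.56), Igdcc3 (2.12) and Sp8 (1.95). It was negative for Prrx1 (-2.05), Dlx5 (-2.82), Ppp2r2c (-3.12), Sp9 (-3.46), Tubb6 (-4) and Slc35d3 (-6.64). Prrx1, a mesenchyme marker, averaged 621 CPM at E12.5 and 422 CPM at E10.5 in mesoderm and 19.3 ± 0.0888 CPM at E12.5 and 54.2 ± 11.2 CPM at E10.5 in ectoderm (SD, n = 2 each). Wnt7a averaged 0.0436 CPM at E12.5 and 1.41 CPM at E10.5 in mesoderm, so its difference rests on low levels there. Krt5, Krt14 and Hoxc13 were also low in mesoderm, as given with the layer comparison above.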

How the results depend on the processing

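With 2 libraries a stage and 3 residual degrees of freedom, the calls depend on the spread shared between stages. The 2146 genes called in ectoderm became 569 without the replicate block, 3328 with the 4 libraries alone, 376 when a change of over 2-fold was required, 812 on FPKM without a filter on low values, and between 697 and 3002 with 1 of the 8 libraries left out. The 12 ridge genes that fell became 5 with the fold requirement, 6 on unfiltered FPKM, and 7 to 14 with a library left out. The 4 periderm genes that rose became 2 without the replicate block, 2 with the fold requirement, 1 on unfiltered FPKM, and 2 to 6 with a library left out. The 2009 genes that differed between layers became 475 with neither embryo batch nor replicate block in the fit and 637 to 1645 with a library left out. In these settings the cause was not tested. RLE and upper-quartile scaling, DESeq2, 16 libraries in 1 fit, both filtered FPKM fits, no count filter and the fit without E11.5 kept these counts within 1.5 times where they were run. The log2 fold change of Wnt7a ran from -0.43 to 0.52 with a library left out and turned negative without E12.5 replicate 1 and without E10.5 replicate 2 (-0.09). That of En1 ran from -0.33 to 0.25, turned positive in the same fits (0.25 and 0.03) and stood at 0.006845 and 0.006559 in the FPKM fits; neither gene was called with all libraries. Of 128 named genes called, 67 were called with each of the 4 libraries left out, 69 without the replicate block and 60 in all of these.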

Other observations

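Several gene families outside the lists were examined after their values had been seen. Of all tested genes 7.76 percent rose and 7.07 percent fell. Several of the 18 families looked at had larger shares, among them collagens (10 of 36 higher, 4 lower) and keratins (9 of 23 higher, 7 lower). FGF ligands had 2 of 13 higher and 6 lower, and the histone genes 1 of 18 higher and 0 lower. Of 10 tested annexins, calcium-dependent membrane-binding proteins, 7 rose and 0 fell, with a median log2 fold change of 1.12. Anxa8 had 109 and 42 CPM at E12.5, against 4.71 and 4.54 CPM at E10.5 (log2 fold change 3.84, SE 0.31, adjusted p = 0.000396), and Anxa1 had 93.8 and 62.7 CPM at E12.5, against 22.7 and 27.4 CPM at E10.5 (log2 fold change 1.65, SE 0.25, adjusted p = 0.00394). Of 19 tested semaphorins, guidance signals of axons and vessels, 7 rose and 1 fell. Sema4f had 26 and 18.7 CPM at E12.5, against 2.18 and 1.71 CPM at E10.5 (log2 fold change 3.51, SE 0.30, adjusted p = 0.00051) and Sema3d had 150.1 and 123 CPM at E12.5, against 44 and 43.3 CPM at E10.5 (log2 fold change 1.64, SE 0.12, adjusted p = 0.000364). The neighbouring connexin genes Gjb2 and Gjb6 lie 18.6 kb apart on the minus strand of chromosome 14 and both rose. Gjb2 had 338 and 235 CPM at E12.5, against 46.5 and 45.6 CPM at E10.5 (log2 fold change 2.63, SE 0.23, adjusted p = 0.000523), and Gjb6 had 95.6 and 64.2 CPM at E12.5, against 4.02 and 4.93 CPM at E10.5 (log2 fold change 4.16, SE 0.35, adjusted p = 0.000452).

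In the other Hox clusters 0 tested members rose. In HoxA 4 of 11 tested genes fell, in HoxB 6 of 9 and in HoxD 4 of 8, against 7.07 percent of all tested genes. A low gene can pass the filter through a group where it is higher, so these counts describe the members that passed and not the clusters. They were not counted again with a library left out or without the replicate block. Of the HoxB genes that fell, Hoxb5, Hoxb6 and Hoxb8 averaged 0 CPM at E12.5 and 1.06, 0.350 and 0.996 CPM at E10.5. The median limb mesenchyme marker in ectoderm stood at 3.71 and 5.10 percent of mesoderm at E12.5, against 12.8 and 11.2 percent at E10.5, and its part in these falls was not tested. Cyp2w1, a cytochrome P450, had 9.46 and 9.6 CPM at E12.5, against 0 and 0 CPM at E10.5, a level below the 10 CPM needed for naming.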
